A study of Homo sapiens with 12 samples.

Results

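IFI6, IFI27, IFI44 and IFI44L are interferon-induced genes, and the stretch of plus-strand RNA that fills most of the gap between IFI44L and its neighbour IFI44 is described with them. The members were the stranded regions of a genome-wide count table that lay in the GENCODE body of a gene, on that gene's strand, and the single region past IFI44L. There were 93 of them among 5254113 regions in all: 10 in IFI6, 13 in IFI27, 28 in IFI44, 41 in IFI44L and 1 past IFI44L. Together they held 25322 reads, of which 10551 lay in IFI6, 276 in IFI27, 6879 in IFI44, 5389 in IFI44L and 2227 in the region past IFI44L. A read was found in 88 of the 93 regions, and 27 passed the filter on low counts (8 in IFI6, 3 in IFI27, 9 in IFI44, 6 in IFI44L and the region past it). Those 27 held 96.8% of the reads, and the other 66 held 804 reads. A region that passed only through the groups in which it was high had to differ between groups, so counts over the 27 describe these regions and not all 93.

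The RNA came from NCI-H1944, a human lung adenocarcinoma line, after pulldown with J2, an antibody against double-stranded RNA. The genotype given for the IFNAR1sg cells was an IFNAR1 knockout and that of the SCR cells was wild type. The sources used here do not say whether the knockout cells were a single clone or a pool. The 6 groups, with 2 libraries each, were IFNAR1sg with MPS1i, IFNAR1sg with IFNb, IFNAR1sg with DMSO, SCR with MPS1i, SCR with IFNb and SCR with DMSO. MPS1i was BAY-1217389 at 100 nM for 48 h, an inhibitor of the mitotic kinase MPS1, and DMSO was its control. All cells then went through a washout and another 24 h of culture, in which the IFNb groups had recombinant interferon beta at 5 ng/ml. For the IFNb groups no treatment before the washout was recorded here. Whether DMSO matches them in that step is therefore not known, nor whether MPS1i and IFNb groups differ in it. Nothing in the labels says that the 2 libraries of a group came from separate cultures, so p-values measure the spread between these libraries, which may be technical. RNA before the pulldown was not analysed here. A change in the amount of a transcript and a change in its double-stranded share, or fewer cells with the transcript and less of it per cell, therefore cannot be told apart.

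Type I interferon binds a receptor of IFNAR1 and IFNAR2, whose kinases JAK1 and TYK2 activate transcription factors. The complex ISGF3, which holds STAT2 and IRF9, binds the interferon-stimulated response element in the promoters of interferon-induced genes. IFI6 and IFI27 belong to the ISG12 family of small membrane proteins of the endoplasmic reticulum and mitochondria, and IFI6 limits infection by flaviviruses. IFI44L and IFI44 are neighbouring paralogs that are among the genes most often used to score interferon signalling in blood and tumours.

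The promoter stretches with letters like an interferon-stimulated response element are shown first. In the RefSeq promoter windows of GRCh38.p14, which run from 250 bases before to 50 bases after a start, the motif GAAANNGAAA was searched on both strands (TTTCNNTTTC on the other). Overlapping matches were allowed. Every window of the 4 genes held it (6 of 6 windows), against 1255 of 35116 windows in all (3.57%). IFI6 had 3 matches, IFI44L and IFI27 had 2 and IFI44 had 1, and 0.259% of all windows had at least 2. No match lay in the windows of IFI27L1 and IFI27L2, the ISG12 relatives next to IFI27. Capitals mark the matches, and each sequence is given 5′ to 3′ on the strand of its gene, at chr1:27672246-27672378 (minus strand) for IFI6, chr14:94110598-94110680 for IFI27, chr1:78649741-78649788 for IFI44 and chr1:78620254-78620414 for IFI44L (plus strand).
IFI6: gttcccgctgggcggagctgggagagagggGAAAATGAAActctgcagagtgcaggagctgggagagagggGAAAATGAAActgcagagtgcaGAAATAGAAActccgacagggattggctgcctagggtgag
IFI27: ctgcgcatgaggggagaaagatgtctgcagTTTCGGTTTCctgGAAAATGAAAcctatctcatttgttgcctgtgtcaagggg
IFI44: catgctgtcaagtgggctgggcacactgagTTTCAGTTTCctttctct
IFI44L: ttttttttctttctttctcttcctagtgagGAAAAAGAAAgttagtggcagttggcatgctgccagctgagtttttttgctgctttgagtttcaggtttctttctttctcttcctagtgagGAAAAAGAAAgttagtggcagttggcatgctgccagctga
The IFI6 matches began 156, 115 and 93 bases before the start, and those of IFI44L 164 and 73 bases before it. IFI27 and IFI44 have 2 start sites each in the table: the IFI27 matches began 108 and 95 bases before one and 187 and 174 before the other, and the IFI44 match began 18 bases before one and 60 before the other. The 2 matches of IFI44L have the same letters, as do 2 of the 3 in IFI6. A match is a description of the letters and not of a bound site. The IFI44 stretch lies inside the region counted past IFI44L, to which the results return.

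The libraries held 3739443 to 7430687 reads. Both SCR IFNb libraries stood apart: 295367 and 296843 regions had a read in them, where the other 10 libraries reached 566704 to 935974, and 47.9% to 49.6% of their reads lay in regions sharing an exon base, against 33.2% to 39.7%. Leaving out the TMM factors shifted the median over all gene sums by more than 0.1 in 6 contrasts, from -0.33 for IFNb in SCR to 0.29 for IFNAR1sg minus SCR in IFNb, and no called change of the members turned its direction. Without both SCR IFNb libraries, all 28 tests of the 4 gene sums in the contrasts that remain gave the call given below. No called one turned its direction. Levels are CPM, counts scaled to the library total times its TMM factor. In the only IFNAR1 region that could be tested (chr21:33343676-33344099, intron 5 with 1 exon base), IFNAR1sg cells had 2.02 and 1.34 CPM with MPS1i, 2.33 and 1.53 with IFNb and 2.73 and 1.69 with DMSO, against 7.08 and 7.4, 9.43 and 9.54, and 9.41 and 9.51 in SCR cells with the same treatments. The IFNAR1sg libraries were lower than SCR in each treatment, by -2.10 ± 0.40 with MPS1i, -2.28 ± 0.39 with IFNb and -2.12 ± 0.37 with DMSO (log2 ± SE; adjusted p = 0.000992, 5.1e-06 and 0.00181, edgeR). The sum over all IFNAR1 regions differed by less. It was 5.03 ± 0.66, 5.0 ± 0.79 and 6.55 ± 0.78 CPM in IFNAR1sg cells with MPS1i, IFNb and DMSO, against 12.8 ± 1.18, 10.7 ± 1.65 and 14.4 ± 0.49 in SCR cells (SD, n = 2), or -1.34 ± 0.27, -1.09 ± 0.29 and -1.14 ± 0.25 (log2 ± SE; adjusted p = 0.000536, 0.0019 and 0.044, edgeR). Where the guide cuts is not given, so the region need not lie at the cut, and these counts do not show whether the receptor subunit is lost. The DMSO call of the region failed in 2 of 18 alternatives, including the one without IFNAR1sg DMSO replicate 2 (adjusted p 0.323), and its MPS1i call failed in 1 of 18, the one without IFNAR1sg MPS1i replicate 2 (adjusted p 0.0814). Of the lung epithelial markers, 6 of 10 passed the filter, among them KRT8, while KRT19 and NKX2-1 had no read counted. Markers of leukocytes passed the filter in 4 of 12 genes, and their summed level was 6.44 to 11.4 CPM in IFNAR1sg MPS1i, 2.36 to 3.36 in IFNAR1sg IFNb, 1.82 to 3.0 in IFNAR1sg DMSO, 11.9 to 12.9 in SCR MPS1i, 10.7 to 12.6 with IFNb in the same cells and 2.69 to 2.86 in SCR DMSO. The 4 tested leukocyte genes were CD4, CD8A, CD68 and ITGAM, and 3 of them were called higher with MPS1i in each genotype (CD4, CD8A and ITGAM in IFNAR1sg, CD4, CD8A and CD68 in SCR). Of all gene sums, 27.1% in IFNAR1sg and 24.5% in SCR were called higher with MPS1i. CD68 averaged 1.25 CPM with MPS1i, 1.54 with IFNb and 0.82 with DMSO in IFNAR1sg cells, against 5.46, 9.03 and 0.805 in SCR cells, and was also called higher with IFNb in SCR. CD8A averaged 2.11 CPM with MPS1i and 0.247 with DMSO in IFNAR1sg cells, and 2.93 and 0.352 in SCR cells. Of the other defining leukocyte genes, PTPRC had 9 reads in all 12 libraries, CD3E had 3, and MS4A1 and NKG7 had 0. Fibroblast markers passed in 3 of 10 genes and summed to 15.2 to 28.1 CPM over all groups, with no read counted for COL1A2. Within that sum FAP rose with MPS1i, to a mean of 11.8 CPM against 1.2 with DMSO in IFNAR1sg and 14.5 against 1.15 in SCR, and FBN1 fell, to 8.93 against 18.0 in IFNAR1sg and 8.67 against 14.2 in SCR. These markers move with the treatments, and their part in the results below was not tested.

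IFI6 (ENSG00000126709.14, chr1:27666061-27672218, minus strand) had the most reads of the 4 genes. Summed over its regions it had 117 and 99.7 CPM in IFNAR1sg MPS1i, 88.9 and 103 in IFNAR1sg IFNb and 14.2 and 12.3 in IFNAR1sg DMSO. In SCR cells it had 221 and 252 CPM with MPS1i, 669 and 802 with IFNb and 20.3 and 21.5 with DMSO. Every treated library lay above every DMSO library, the SCR IFNb libraries were highest, and the MPS1i and IFNb libraries of IFNAR1sg overlapped. The IFI6 reads were concentrated: 9918 of 10551 lay in a single region of 838 bp (chr1:27667389-27668226, intron 4), which shares 1 base with an exon.

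IFI44 (ENSG00000137965.10, chr1:78649796-78664078, plus strand) had 83.1 and 68.2 CPM in IFNAR1sg MPS1i, 79.4 and 73.5 in IFNAR1sg IFNb and 21.8 and 19.8 in IFNAR1sg DMSO. In SCR cells it had 199 and 181 CPM with MPS1i, 364 and 345 with IFNb and 18.9 and 17.6 with DMSO. IFI44L (ENSG00000137959.15, chr1:78619922-78646145, plus strand) had 78.5 and 67.5 CPM in IFNAR1sg MPS1i, 73.3 and 68.7 in IFNAR1sg IFNb and 13.5 and 14.7 in IFNAR1sg DMSO. For IFI44L the SCR levels were 150 and 139 CPM with MPS1i, 265 and 210 with IFNb and 12.7 and 10.1 with DMSO. Both genes had the order of IFI6 in treated cells: SCR with IFNb was above SCR with MPS1i, and both were above the treated IFNAR1sg groups, which overlapped with each other.

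IFI27 (ENSG00000165949.12, chr14:94104836-94116698, plus strand) was the least abundant, with 5 to 41 reads in a library. It had 5.92 and 3.09 CPM in IFNAR1sg MPS1i, 3.88 and 3.61 in IFNAR1sg IFNb and 0.910 and 1.69 in IFNAR1sg DMSO. In SCR cells it had 9.10 and 6.34 CPM with MPS1i, 9.13 and 8.0 with IFNb and 0.682 and 0.792 with DMSO. Every treated library lay above every DMSO library here too, but the MPS1i and IFNb libraries overlapped within each genotype. Per kb of counted regions, the mean levels in SCR IFNb were 155 CPM per kb for IFI6, 2.30 for IFI27, 32.7 for IFI44 and 19.8 for IFI44L, and in SCR DMSO they were 4.41, 0.198, 1.68 and 0.952. The order of the 4 genes per kb, IFI6 over IFI44 over IFI44L over IFI27, was the same in all 6 group means.

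**Figure D1:**
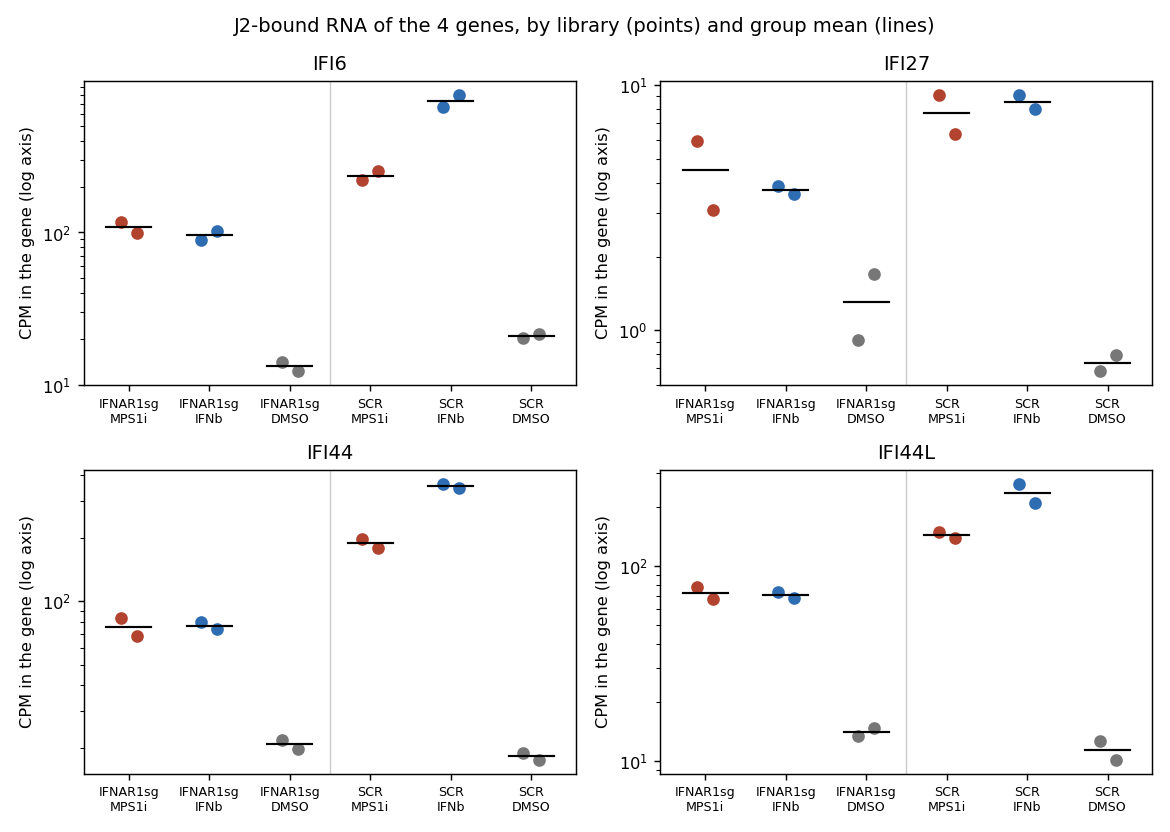
Level of each gene by library. Points are libraries and lines are group means, in CPM on a log axis that differs between panels, with IFNAR1sg groups left of SCR groups; treated libraries lie above the DMSO libraries in every panel, and in SCR cells MPS1i lies below IFNb for IFI6 (221 and 252 against 669 and 802 CPM).

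With MPS1i, all 4 genes rose in IFNAR1sg cells, which are labelled as a knockout of the type I interferon receptor subunit. The change against DMSO was 3.05 ± 0.15 for IFI6, an 8.26-fold increase, 1.71 ± 0.45 for IFI27, 1.86 ± 0.14 for IFI44 and 2.36 ± 0.15 for IFI44L (log2 ± SE, 2 libraries a group; adjusted p = 1.76e-21, 0.00189, 2.78e-15 and 3.25e-17, edgeR's quasi-likelihood test with Benjamini-Hochberg adjustment over 15752 gene sums). All 4 were thus called higher, where 27.1% of all gene sums were. The IFI27 call was lost without IFNAR1sg MPS1i replicate 1 (1.21, adjusted p = 0.0777). By region, 17 of the 27 tested were called higher, against 9.41% of 89111 regions in all, and the median change was 2.36 against 0.0082 (2.17 with the region that had no read in IFNAR1sg DMSO at its bound, computed against 3 counts over the group). Without IFNAR1sg DMSO replicate 1 the count was 11, as it was without IFNAR1sg DMSO replicate 2, and DESeq2 called 10. Of the 17 calls, 9 held in every alternative that tested the region.

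In SCR cells the MPS1i changes were 3.5 ± 0.14 for IFI6, an 11.3-fold increase, 3.34 ± 0.48 for IFI27, 3.37 ± 0.13 for IFI44 and 3.65 ± 0.15 for IFI44L (adjusted p = 7.2e-26, 3.19e-07, 1.99e-25 and 9.85e-25, edgeR). All 4 gene sums were called higher, against 24.5% of all gene sums. By region, 26 of 27 were called higher, against 9.5% of all regions, and the exception lay in IFI44 (chr1:78655864-78656400, intron 5, 1.70 ± 0.65). The changes of the tested regions ran between 2.49 and 7.05 in IFI6, between 2.76 and 3.93 in IFI27, between 1.70 and 5.14 in IFI44 and between 2.62 and 4.34 in IFI44L. Their median was 3.63 against -0.028 over all regions, and 3.5 with 2 IFI6 regions that had no read in SCR DMSO at their bound. Of the 26 calls, 17 held in every alternative that tested the region.

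With IFNb in SCR cells the changes were 5.14 ± 0.14 for IFI6, a 35.2-fold increase, 3.51 ± 0.50 for IFI27, 4.28 ± 0.14 for IFI44 and 4.37 ± 0.15 for IFI44L (adjusted p = 1.29e-32, 6.7e-08, 5.26e-30 and 2.16e-28, edgeR). All 4 gene sums were called higher, against 17.8% of all gene sums, and 25 of 27 regions were, against 15% of all regions. The 2 regions not called were chr14:94114900-94115467 in intron 3 of IFI27 (2.68 ± 1.10) and chr1:78661803-78662403 in intron 7 of IFI44 (1.49 ± 0.97).

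In IFNAR1sg cells IFI6, IFI44 and IFI44L were also called higher with IFNb, while IFI27 was higher but not called. The changes were 2.87 ± 0.15 for IFI6, a 7.29-fold increase, 1.88 ± 0.13 for IFI44 and 2.32 ± 0.15 for IFI44L (adjusted p = 1.74e-20, 4.58e-15 and 1.14e-16, edgeR). For IFI27 it was 1.46 ± 0.46 (adjusted p = 0.0942). Thus 3 of 4 gene sums were called higher in cells labelled as lacking IFNAR1, where 1.33% of all gene sums were. By region 12 of 27 were called higher, against 0.547% of all regions. Of these 12 calls, 5 held in every alternative that tested the region. Without IFNAR1sg DMSO replicate 2 the count was 6, and DESeq2 called the 6 regions to which it gave an adjusted p.

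**Figure D2:**
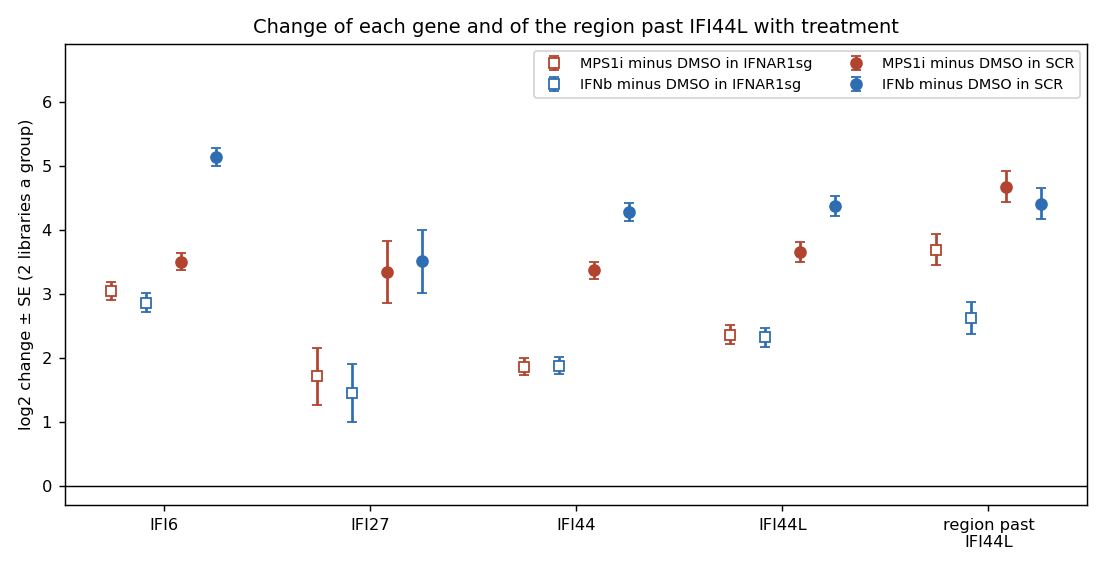
Change of each gene and of the region past IFI44L with treatment. Points are log2 changes against DMSO with bars of 1 SE (2 libraries a group), open squares for IFNAR1sg and filled circles for SCR. For the region past IFI44L the MPS1i point lies above the IFNb point in both genotypes (3.69 against 2.62 in IFNAR1sg and 4.67 against 4.41 in SCR, where the difference was not called). For IFI6 in SCR the MPS1i point lies below (3.5 against 5.14).

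Between the genotypes, the genes did not differ by the test in DMSO. The IFNAR1sg minus SCR difference was -0.67 ± 0.17 for IFI6 (adjusted p = 0.0811), 0.86 ± 0.61 for IFI27, 0.18 ± 0.16 for IFI44 and 0.30 ± 0.18 for IFI44L. No gene sum of the 4 was called by edgeR, or by DESeq2 in the 3 to which it gave an adjusted p, against 0.121% of all gene sums, and IFI6 alone had an unadjusted p under 0.05. IFI6 was called lower in 4 of 20 alternatives, including those without IFNAR1sg MPS1i replicate 1 (adjusted p = 0.0186) and without replicate 2 of that group (adjusted p = 0.0249), and in sums without exon-sharing regions its difference was 0.05. None of the 27 regions was called by edgeR, or by DESeq2 in the 6 to which it gave an adjusted p, against 0.0774% of all regions, and 2 had an unadjusted p under 0.05. Leaving out any library of another group, or SCR DMSO replicate 1, brought the count to 1, the 838 bp region of IFI6.

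After treatment with MPS1i, 3 of the 4 genes were lower in IFNAR1sg than in SCR cells, and after IFNb all 4 were. With MPS1i the IFNAR1sg minus SCR difference was -1.13 ± 0.12 for IFI6, -1.33 ± 0.12 for IFI44 and -0.98 ± 0.12 for IFI44L (adjusted p = 2.54e-10, 3.18e-12 and 5.43e-08, edgeR), and -0.76 ± 0.36 for IFI27 (adjusted p = 0.27). So 3 gene sums were called lower, against 1.83% of all, and 6 of 27 regions were, against 0.323% of all regions. With IFNb it was -2.94 ± 0.12 for IFI6, -1.19 ± 0.38 for IFI27, -2.21 ± 0.12 for IFI44 and -1.74 ± 0.12 for IFI44L (adjusted p = 3.87e-25, 0.00986, 9e-21 and 5.69e-16, edgeR). All 4 gene sums were called lower, against 14.9% of all, and 13 of 27 regions were, against 12.4% of all regions. The IFI27 call was lost without SCR IFNb replicate 1 (-1.11, adjusted p = 0.0727).

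Whether a treatment moved the genes less in IFNAR1sg than in SCR was tested as an interaction, the change in IFNAR1sg minus the change in SCR. For IFNb it was -2.27 ± 0.21 for IFI6, -2.05 ± 0.72 for IFI27, -2.39 ± 0.19 for IFI44 and -2.05 ± 0.22 for IFI44L (adjusted p = 8.53e-12, 0.0266, 1.69e-13 and 8.6e-10, edgeR). All 4 were called lower, against 10.3% of all gene sums, and 7 of 27 regions were, against 5.11% of all regions. The IFI27 call was lost without SCR IFNb replicate 1 (-1.96), without SCR DMSO replicate 1 (-2.01), without IFNAR1sg DMSO replicate 2 (-1.54) and without TMM factors (-1.77, adjusted p = 0.0511).

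For MPS1i the interaction was -1.51 ± 0.19 for IFI44 and -1.29 ± 0.22 for IFI44L (adjusted p = 1.75e-06 and 0.000242, edgeR), and it was not called for IFI6 (-0.46 ± 0.20, adjusted p = 0.366) or IFI27 (-1.63 ± 0.71, adjusted p = 0.348). So 2 gene sums were called lower, against 0.768% of all, and 3 of 27 regions were, against 0.0505% of all regions. Without IFNAR1sg DMSO replicate 1 the count of regions was 1. In sums without exon-sharing regions the interaction was -0.70 for IFI44 and -1.15 for IFI44L, and neither was called (adjusted p = 0.583 and 0.153). The DMSO libraries enter the changes of both treatments within a genotype, so the changes with MPS1i and IFNb share their controls.

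MPS1i and IFNb were also compared directly, with no shared DMSO libraries. In SCR cells IFI6, IFI44 and IFI44L were lower with MPS1i than with IFNb: the difference was -1.64 ± 0.11 for IFI6, -0.91 ± 0.11 for IFI44 and -0.72 ± 0.12 for IFI44L (adjusted p = 1.25e-15, 1.32e-08 and 6.35e-06, edgeR), while IFI27 was not called (-0.17 ± 0.37, adjusted p = 0.746). So 3 of 4 gene sums were called lower, against 10.7% of all. Regions sharing an exon base numbered 7 of the 93, each with 1 shared base, yet held 79.5% of the members' reads, 5373 reads per kb against 167 in the other 86. The sources used here do not say how reads were assigned at such edges, and the value of such a region may hold reads of its exon.

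By region, 5 of 27 were called lower with MPS1i than with IFNb in SCR cells, against 5.82% of all regions, and 1 was called higher, against 6.82%. All 5 that were lower share an exon base: the IFI6 region of 838 bp (196 and 234 CPM with MPS1i, 645 and 781 with IFNb; -1.73 ± 0.15), 3 IFI44 regions and 1 IFI44L region. The IFI44 regions were chr1:78650652-78652092 in intron 2 (-1.0 ± 0.19), chr1:78654279-78654616 in intron 3 (-1.13 ± 0.24) and chr1:78655511-78655628 in intron 5 (-1.01 ± 0.17), and the IFI44L region was chr1:78628999-78629141 in intron 3 (-0.96 ± 0.16). None of the 19 regions in the gene bodies that share no exon base was called by edgeR, or by DESeq2 in the 12 to which it gave an adjusted p, and none had an unadjusted p under 0.05. Of these 19, 13 were below 0 and 6 above: the 7 in IFI6 differed by between -0.70 and 0.48, the 6 in IFI44 by between -0.64 and 1.42 (5 below 0), the 4 in IFI44L by between -1.16 and -0.31 (all below 0), and the 2 in IFI27 by -0.70 and 0.46. They had few reads and wider errors, and whether exon-sharing regions differed more than the others was not tested. In sums without exon-sharing regions the differences were -0.10 for IFI6, -0.05 for IFI44 and -0.25 for IFI44L (adjusted p = 0.757, 0.873 and 0.323). The share of reads in exon-sharing regions was itself higher in the SCR IFNb libraries, as given above, and its part in these differences was not tested.

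The IFI6 regions with no exon base were chr1:27666491-27667228, chr1:27668574-27669214, chr1:27669429-27669880, chr1:27670285-27670447, chr1:27670470-27671095, chr1:27671153-27671374 and chr1:27671561-27672122. They lie in introns 4, 2 and 1 and had 0 to 5.78 CPM in a library, the highest in the first of them in SCR IFNb replicate 1. All 4 member regions that name an Alu repeat are in IFI6, and 3 of these passed the filter. An Alu pair in opposite orientation can fold into double-stranded RNA, but the orientation of these Alus is not given in the table. The Alu regions changed with MPS1i in SCR cells by 4.12 ± 1.22, 2.49 ± 0.72 and 3.94 ± 0.79, all called, on 66, 102 and 103 reads in the 12 libraries. The calls of chr1:27670285-27670447 and chr1:27670470-27671095 were each lost in 4 alternatives, both of them without SCR MPS1i replicate 2 (adjusted p = 0.191 and 0.122), without SCR DMSO replicate 2 and without the filter, the first also with DESeq2 and the second also without SCR DMSO replicate 1.

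The regions without an exon base in the other genes had few reads each. In IFI44 they were chr1:78652123-78652976 and chr1:78653619-78654242 in intron 2, chr1:78655864-78656400 and chr1:78657751-78658081 in intron 5, and chr1:78661188-78661801 and chr1:78661803-78662403 in intron 7, with 82 to 158 reads in the 12 libraries. With MPS1i they changed by between 1.07 and 4.14 in IFNAR1sg and between 1.70 and 5.14 in SCR. The highest of both ranges belonged to chr1:78657751-78658081, which had 1.88 and 1.48 CPM in IFNAR1sg MPS1i against 0 and 0.13 in IFNAR1sg DMSO, and 5.31 and 6.34 in SCR MPS1i against 0.273 and 0 in SCR DMSO.

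In IFI44L the regions were chr1:78622566-78623186 and chr1:78624057-78625072 in intron 1 and chr1:78630579-78631420 and chr1:78632266-78633184 in intron 4. The most read of them, chr1:78630579-78631420, had 5.64 and 3.89 CPM in IFNAR1sg MPS1i against 0.364 and 1.17 in IFNAR1sg DMSO, and 9.10 and 9.34 in SCR MPS1i against 0.818 and 0 in SCR DMSO, and it was called higher with MPS1i in both (2.49 ± 0.50 and 4.34 ± 0.53). The other 3 were called higher with MPS1i in SCR (2.62 ± 0.55, 3.63 ± 1.35 and 3.75 ± 0.75) and not in IFNAR1sg. The call at chr1:78624057-78625072 was lost in 12 of 17 alternatives, among them DESeq2 (adjusted p = 0.121) and those without any one of the SCR MPS1i and SCR DMSO libraries, and in IFNAR1sg the same region was called higher in 6 of 17. In IFI27 the tested regions were chr14:94111029-94111619 in intron 1, chr14:94112194-94112848 in intron 2, which shares an exon base, and chr14:94114900-94115467 in intron 3. They changed with MPS1i by 1.82 ± 0.75, 2.15 ± 0.86 and 3.57 ± 1.25 in IFNAR1sg, where the last was called, and by 3.93 ± 0.90, 2.76 ± 0.85 and 3.14 ± 1.02 in SCR, where all 3 were. The IFNAR1sg call was lost without any one of the 4 IFNAR1sg MPS1i and DMSO libraries, with DESeq2 (adjusted p = 0.112) and without the filter. Of the SCR calls, those in introns 2 and 3 were each lost in 5 alternatives, with adjusted p up to 0.13 and 0.157, among them those without SCR MPS1i replicate 1, without SCR MPS1i replicate 2 and without SCR DMSO replicate 2, and for intron 3 also without SCR DMSO replicate 1.

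**Figure D3:**
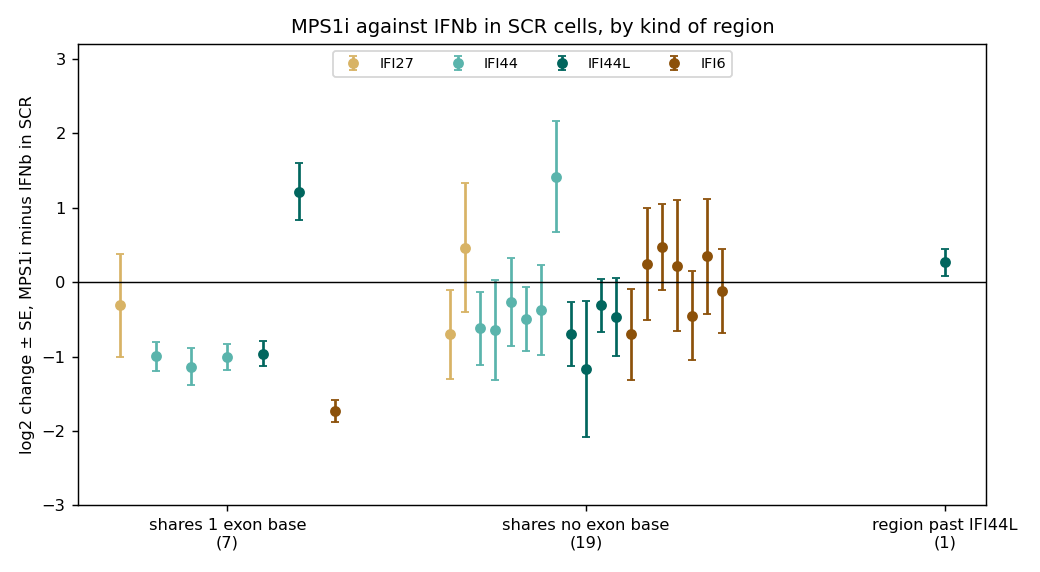
Difference between MPS1i and IFNb in SCR cells for the 27 tested regions, grouped by kind. Points are log2 differences with bars of 1 SE (2 libraries a group); all 5 regions called lower with MPS1i are among the 7 that share an exon base, and the region of IFI44L that lies at its end is above 0 (1.22).

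In IFNAR1sg cells the direct comparison, added after the data had been seen, gave differences of 0.18 ± 0.12 for IFI6, 0.26 ± 0.37 for IFI27, -0.02 ± 0.12 for IFI44 and 0.04 ± 0.12 for IFI44L. None was called by edgeR, where 25.7% of all gene sums were called higher, or by DESeq2, and none had an unadjusted p under 0.05. At these standard errors a small difference would not have been called, and for IFI27 not a larger one either. By region 1 of 27 was called higher with MPS1i than with IFNb, against 6.48% of all regions, and none lower. That single region was the one past IFI44L, a member chosen, like the others, with earlier results of these data known. Without IFNAR1sg IFNb replicate 2 the count was 2, with chr1:78661803-78662403 of IFI44 added.

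The region past IFI44L (chr1:78646360-78649791, plus strand, 3432 bp) starts 214 bp after the annotated end of IFI44L and stops 4 bp before the annotated start of IFI44, in a gap of 3650 bp. RNA that runs on from IFI44L and RNA that starts ahead of IFI44 cannot be told apart there. It had 43.1 and 40.8 CPM in IFNAR1sg MPS1i, 18.9 and 21.1 in IFNAR1sg IFNb, and 4.19 and 2.48 in IFNAR1sg DMSO. In SCR cells it had 88.7 and 77.3 CPM with MPS1i, 72.1 and 65.8 with IFNb and 3.0 and 3.49 with DMSO. Unlike the gene sums, its MPS1i libraries lay above its IFNb libraries in both genotypes. The region names an L2a and a MIR element, and its 649 reads per kb exceeded the 100 reads per kb of the IFI44L regions without an exon base.

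With MPS1i the region past IFI44L rose by 3.69 ± 0.24 in IFNAR1sg and 4.67 ± 0.24 in SCR, and with IFNb by 2.62 ± 0.25 in IFNAR1sg and 4.41 ± 0.24 in SCR (adjusted p = 5.5e-21, 6.3e-28, 1.2e-12 and 1.7e-26, edgeR). MPS1i exceeded IFNb by 1.07 ± 0.19 in IFNAR1sg (adjusted p = 2.9e-05, edgeR), and by 0.27 ± 0.18 in SCR, which was not called. The median of this difference over all regions was -0.0084 in IFNAR1sg and 0.203 in SCR, so the SCR value was near that of regions in general. The region was a member chosen with earlier results of these data known, so its p-values do not test a region picked in advance. IFNAR1sg was below SCR by -0.98 ± 0.18 with MPS1i and by -1.79 ± 0.20 with IFNb. The short region that joins it, chr1:78646145-78646359, shares the last base of IFI44L and lies past its end. It had 5.78 and 7.11 CPM in IFNAR1sg MPS1i, 4.27 and 3.34 in IFNAR1sg IFNb and 0.546 and 0.522 in IFNAR1sg DMSO. Its SCR levels were 15.4 and 9.87 CPM with MPS1i, 7.61 and 3.08 with IFNb and 0.409 and 0.951 with DMSO. It was the single region called higher with MPS1i than with IFNb in SCR cells (1.22 ± 0.38, adjusted p = 0.022), a call that was lost without SCR MPS1i replicate 1, without SCR IFNb replicate 2, with DESeq2 and without the filter.

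**Figure D4:**
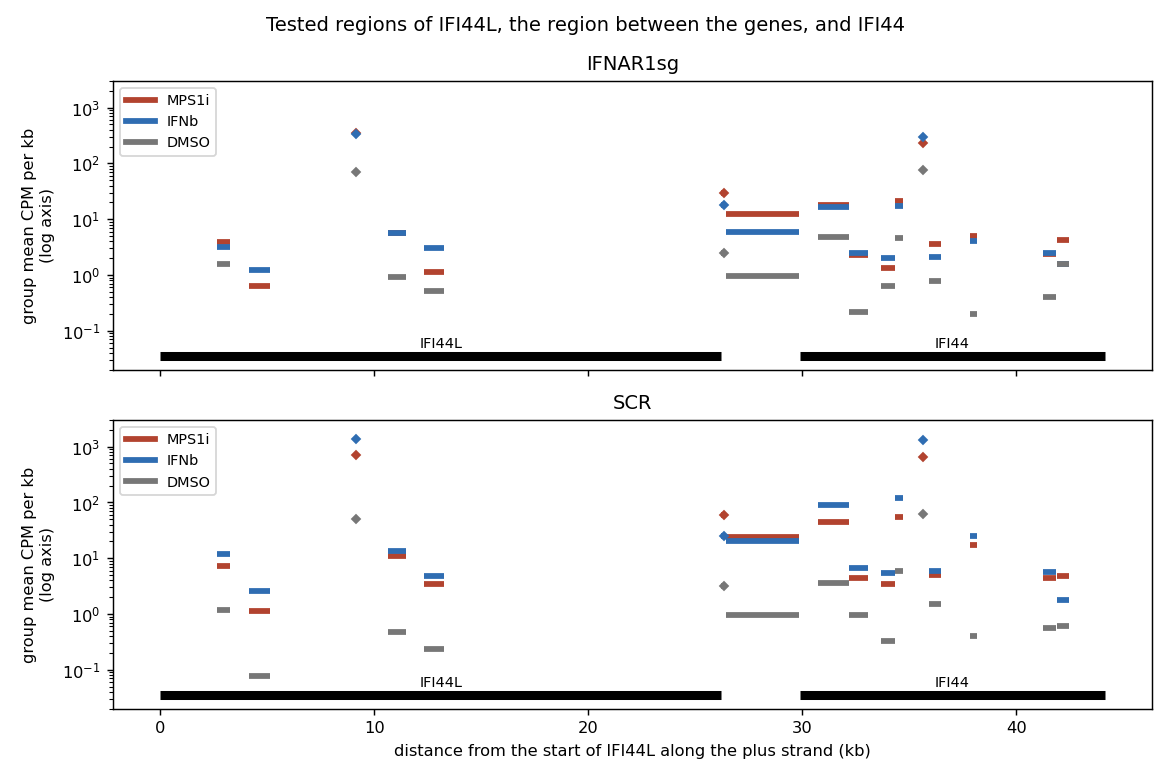
Tested regions along IFI44L, the gap and IFI44, in IFNAR1sg (top) and SCR cells (bottom). Lines are group mean CPM per kb on a log axis against the distance from the start of IFI44L in kb, diamonds mark regions too short to draw as a line, black bars are the genes, groups at 0 are not drawn and overlapping groups hide each other; in the gap the MPS1i line lies above the IFNb line in both panels, while in SCR cells MPS1i lies below IFNb at the exon-sharing regions inside the genes and above it at the one that joins the gap (15.4 and 9.87 against 7.61 and 3.08 CPM).

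Set against the reads of the regions counted to IFI44L in the same library, which removes library scaling, the region past its end had 54.9% and 60.4% in IFNAR1sg MPS1i, 25.7% and 30.8% in IFNAR1sg IFNb, and 31.1% and 16.8% in IFNAR1sg DMSO. Those regions include the short one that shares the last base of IFI44L. In SCR cells the region past the end had 59.2% and 55.6% with MPS1i, 27.2% and 31.3% with IFNb and 23.7% and 34.4% with DMSO. The 4 MPS1i libraries, from 54.9% to 60.4%, lay above all 8 others, which reached 34.4%. Over both genotypes the ratio was 57.5% ± 2.71 with MPS1i, 28.8% ± 2.72 with IFNb and 26.5% ± 7.85 with DMSO (SD, n = 4 each). MPS1i against IFNb and MPS1i against DMSO each gave p = 0.0286 in an exact two-sided permutation test. That is the smallest value that 4 against 4 can give. This test, here and below, treated the 4 libraries of a treatment as exchangeable and ignored genotype. Permutation within each genotype was not run. It allows fewer arrangements, so its smallest p would be larger. These ratios were chosen after the data had been seen. Adjusted over the 32 comparisons of 16 ratios, the values were 0.0763.

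The order did not depend on the denominator among those tried. Against the exon-sharing region in intron 3 of IFI44L alone the 4 MPS1i libraries had 79.7% to 86.9% and the others 27.5% to 52.4%, against the IFI44L regions without an exon base 227.5% to 304% and 47.5% to 200%, and against IFI44 42.8% to 59.8% and 12.5% to 28.7%. Each of these comparisons of MPS1i with IFNb and with DMSO again gave the smallest exact p, 0.0286, before adjustment.

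The other ends were examined in the 10 kb past each gene on its strand. Past IFI44 the reads were 5.39% and 9.25% of those in the gene in IFNAR1sg MPS1i, 1.47% and 2.27% in IFNAR1sg IFNb, and 3.33% and 0.658% in IFNAR1sg DMSO. In SCR cells they were 6.11% and 5.66% with MPS1i, 1.59% and 2.14% with IFNb and 2.88% and 0.901% with DMSO. The MPS1i libraries were above all others (exact permutation p = 0.0286 against IFNb and against DMSO, 0.0763 after adjustment). These shares rest on few reads past IFI44: 4 and 1 in IFNAR1sg DMSO, 4 and 1 in SCR DMSO, 9 to 24 with IFNb and 31 to 58 with MPS1i. The tested regions there, chr1:78668081-78668402 and chr1:78673478-78674079, held 47 and 49 reads in all. Past IFI6 the share was 3.2% and 4.04% in IFNAR1sg MPS1i and 1.60% and 1.61% in SCR MPS1i, against 0.182% to 0.872% in the 4 IFNb libraries and 0% to 7.69% in the 4 DMSO libraries (exact permutation p = 0.0286 and 0.629). The 10 kb past IFI6 reach LINC02574, 3338 bp past it on the same strand, and the part of that gene in these shares was not tested. Past IFI27 the few reads gave p = 0.2 against IFNb and 0.0286 against DMSO, where all 4 DMSO libraries were at 0, by the same exact permutation test. No ratio past a gene reached an adjusted p under 0.05, which would have needed 19 of the 32 comparisons at the smallest exact p of 0.0286, where 12 were.

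**Figure D5:**
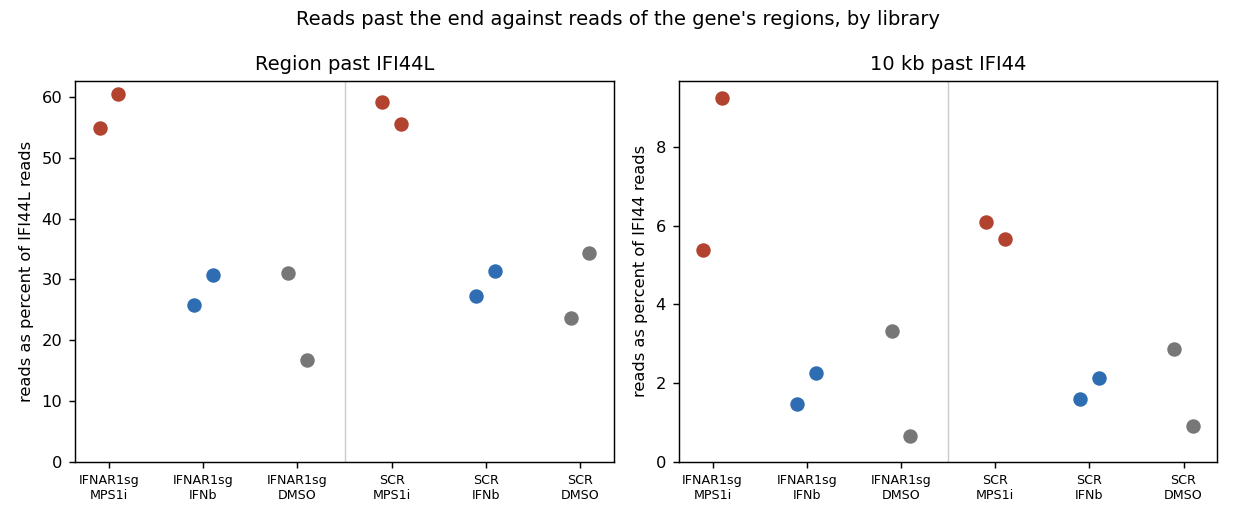
Reads past the end as a percent of reads in the regions counted to the gene, by library, for the region past IFI44L (left) and for 10 kb past IFI44 (right). Points are libraries; the 4 MPS1i libraries lie at 54.9% to 60.4% on the left and at 5.39% to 9.25% on the right, above every IFNb and DMSO library.

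RNA was also counted on the strand opposite the genes. A region of 46849 bp on the minus strand, chr1:78617720-78664568, spans both IFI44L and IFI44. It had 24.7 and 26.2 CPM in IFNAR1sg MPS1i, 18.7 and 19.2 in IFNAR1sg IFNb and 3.46 and 2.22 in IFNAR1sg DMSO. The SCR libraries had 39.4 and 50.9 CPM with MPS1i, 104 and 90.1 with IFNb and 3.14 and 4.91 with DMSO. In SCR cells its IFNb libraries lay above its MPS1i libraries, as for IFI44 and IFI44L. In IFNAR1sg cells its MPS1i libraries lay above its IFNb libraries, where those of the 2 genes overlapped, and the difference was not called (0.42 ± 0.20, adjusted p = 0.167, edgeR). It rose by 3.2 ± 0.26 and 3.51 ± 0.25 with MPS1i and by 2.77 ± 0.27 and 4.60 ± 0.24 with IFNb in IFNAR1sg and SCR cells, and in SCR cells it was lower with MPS1i than with IFNb (-1.10 ± 0.19). The minus-strand region chr14:94110625-94116702 opposite IFI27 rose by 2.63 ± 0.60 and 2.86 ± 0.56 with MPS1i and by 2.37 ± 0.62 and 3.53 ± 0.55 with IFNb in the same order of genotypes. Opposite IFI6, the plus-strand regions chr1:27660269-27666298 and chr1:27666309-27669422 held 99 and 114 reads; both were called higher with MPS1i in both genotypes and with IFNb in SCR, and neither with IFNb in IFNAR1sg. The sources used here do not say how strand was handled in counting, so reads of a gene and of a partner on the other strand cannot be told apart. Reads opposite both IFI44L and IFI44 were 6.42% to 19.3% of the reads of the 2 genes, with overlap between MPS1i, IFNb and DMSO libraries. Opposite IFI27 they averaged 112%, 110% and 131% of the IFI27 reads with MPS1i, IFNb and DMSO, on few reads and again with overlap. The IFI27 values are therefore open to reads of the other strand.

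Genes within 100 kb were followed by their sums. IFI27L1, an ISG12 family member whose body lies 989 bp before that of IFI27 on the same strand, changed by -0.20 ± 0.20 and -0.23 ± 0.21 with MPS1i and by -0.02 ± 0.19 and -0.10 ± 0.22 with IFNb in IFNAR1sg and SCR cells, and was not called in any of the 4. The regions within 10 kb before IFI27 that passed the filter, chr14:94096965-94097189 and chr14:94098425-94100663, were not called either. LINC02574, 3338 bp past IFI6 on the same strand, rose with MPS1i in both genotypes (3.45 ± 1.23 and 3.57 ± 1.04) on 44 reads in all, and FGR, a Src-family kinase gene, rose with MPS1i in both (1.40 ± 0.50 in IFNAR1sg and 2.02 ± 0.50 in SCR) and with IFNb in SCR (1.51 ± 0.56). PTGFR, the prostaglandin F receptor gene 80172 bp before IFI44L, rose with MPS1i in both genotypes (3.19 ± 0.75 and 2.23 ± 0.84) on 92 reads in all. PPP4R4 near IFI27 rose with MPS1i in IFNAR1sg (3.51 ± 0.87) on 71 reads. Among all gene sums, 27.1% in IFNAR1sg and 24.5% in SCR were called higher with MPS1i, and 17.8% with IFNb in SCR. FAM76A rose (0.93 ± 0.14) and AHDC1 fell by 0.93 ± 0.22 with IFNb in SCR, and DDX24, an RNA helicase gene, was called in none of the 4 contrasts.

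The likeness of patterns was measured as the root mean square difference of centred log2 CPM over the 12 libraries. The values were not scaled, so the size of a gene's changes counts in it along with their order. For IFI6 the nearest gene sums were OAS2 (0.275), an oligoadenylate synthetase, ENSG00000257452 (0.291) and IFIT1 (0.312), where the median over 15751 other gene sums was 2.05. For IFI27 they were PLSCR1 (0.303), EPSTI1 (0.332) and OAS3 (0.333), with a median of 1.25. Among the nearest to IFI44 were IFI16 (0.204), a DNA sensor, and TRANK1 (0.25), with a median of 1.65, and IFI44L followed at 0.254. For IFI44L the nearest was IFI44, at the same 0.254, and IRF7 (0.311) and RMI2 (0.344) were also among the nearest, with a median of 1.68. The other pairs of members were less alike. IFI6 lay 0.517 from IFI44 and 0.55 from IFI44L, and IFI27 lay 0.556 and 0.553 from them. IFI6 and IFI27 were 1.01 apart, which ranked IFI27 89 for IFI6 and IFI6 2828 for IFI27. IFI27 had few reads, and the part of its low counts in these distances and ranks was not tested. The longest run of bases shared by IFI44L and IFI44 transcripts was 13, and by IFI6 and IFI27 transcripts 11. These runs describe exons only, while 86 of the 93 regions hold no exon base, and how reads were split between the paralogs was not tested.

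Many genes of the interferon pathway rose in the same contrasts as the 4 genes. Of 40 other interferon-induced effectors, 38 were tested, and 35 were called higher with MPS1i in IFNAR1sg, 38 with MPS1i in SCR, 28 with IFNb in IFNAR1sg and 38 with IFNb in SCR, where 27.1%, 24.5%, 1.33% and 17.8% of all gene sums were. Their median changes were 1.93, 3.19, 1.51 and 3.49, against 0.217, 0.202, -0.0157 and -0.196 over all gene sums in these contrasts. GBP1 had no read in IFNAR1sg DMSO, and with it at its bound the IFNAR1sg medians were 1.81 and 1.46. OAS2 rose by 3.04 ± 0.14 and 4.25 ± 0.14 with MPS1i and by 2.88 ± 0.14 and 5.68 ± 0.14 with IFNb in IFNAR1sg and SCR, and MX1, a dynamin-like antiviral GTPase, by 3.02 ± 0.15, 4.26 ± 0.15, 3.18 ± 0.15 and 5.24 ± 0.15. Between MPS1i and IFNb in SCR, 20 effectors were called lower and 1 higher, against 10.7% and 27.5% of all gene sums, with a median of -0.48 against 0.383 over all gene sums. In IFNAR1sg, 15 effectors were called higher with MPS1i than with IFNb by edgeR, where 25.7% of all gene sums were called higher, with a median of 0.30 against 0.193. Of the promoters of 33 effectors in the RefSeq table, 22 held the motif.

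Of the 7 transcription factors 6 were tested. STAT2 rose in all 4 contrasts, by 1.89 ± 0.22 and 2.81 ± 0.20 with MPS1i and by 1.35 ± 0.23 and 4.0 ± 0.19 with IFNb in IFNAR1sg and SCR; IRF7 rose in all 4 as well, and IRF1 with MPS1i in SCR (2.78 ± 0.84). IRF2 and IRF3 were not called in these contrasts. Among feedback and conjugation genes 6 of 8 were tested, and 5 and 6 were called higher with MPS1i and 2 and 6 with IFNb in IFNAR1sg and SCR, against 27.1% and 24.5% of all gene sums with MPS1i and 1.33% and 17.8% with IFNb; USP18, which restrains the receptor, rose by 1.82 ± 0.20 and 2.91 ± 0.19 with MPS1i and by 2.34 ± 0.20 and 4.07 ± 0.18 with IFNb. Of 4 tested receptors and kinases, none was called with either treatment in IFNAR1sg, where 27.1% of all gene sums were called higher with MPS1i and 1.33% with IFNb. In SCR, JAK1 and IFNLR1 were called higher with MPS1i and JAK1 with IFNb, against 24.5% and 17.8% of all gene sums. No interferon ligand passed the filter: IFNL1 had 9 reads in all 12 libraries, and no read was counted for IFNB1, IFNL2, IFNL3, IFNE and IFNK.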

How the data were processed

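The deposited file holds raw counts, whole numbers of reads per stranded region in 12 J2 libraries, not normalized by the authors. The submitters' processing notes list STAR, featureCounts, HOMER, cutadapt, Trimmomatic and Trim Galore with neither role nor version, and the builds GRCh38 and hg38. The sources used here do not say how strand, overlaps and multiply mapped reads were counted. Regions were placed on GENCODE genes of hg38. Counts were tested with edgeR 4.0.16 in R 4.3.3 (quasi-likelihood F-test, TMM, filterByExpr with minimum count 10, minimum total 15 and proportion 0.7). All 12 libraries were fitted together as 6 groups, with 6 residual degrees of freedom and no covariate. This left 89111 regions and, summed per gene with exon-sharing regions included, 15752 gene sums. Calls are at an adjusted p under 0.05 (Benjamini-Hochberg). Standard errors were computed from the change and its F value. Alternatives were DESeq2 1.42.0 (Wald test and size factors), no TMM factors, no filter, only the groups compared, a replicate block, sums without exon-sharing regions, and leaving out each library or both SCR IFNb libraries. The fit was tested on simulated data. The named regions are all that passed the filter in the 4 genes, past IFI44L, within 10 kb or on the opposite strand; neighbours lie within 100 kb; likeness and pathway genes followed set rules. The members and lists were chosen with earlier results of these data known. Promoter sequences are RefSeq's. Values of some listed genes are not reported here.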

Additional observations from a re-analysis of the deposited data

Results flagged for a closer look

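The size of a treatment's change differed between IFNAR1sg and SCR cells, by the interaction test of edgeR (change in IFNAR1sg minus change in SCR), for the following results. With IFNb the gene sums differed by -2.27 for IFI6, -2.05 for IFI27, -2.39 for IFI44 and -2.05 for IFI44L on the log2 scale. By region the IFNb changes differed by -2.27 at chr1:27667389-27668226 in IFI6, -2.44 at chr1:78622566-78623186 and -2.43 at chr1:78628999-78629141 in IFI44L, -1.79 in the region past IFI44L, and -2.83 at chr1:78650652-78652092, -2.47 at chr1:78654279-78654616 and -2.48 at chr1:78655511-78655628 in IFI44. The call at chr1:78622566-78623186 was lost in 10 of 18 alternatives, among them DESeq2 (adjusted p = 0.0625), those without TMM factors and those leaving out any one of the SCR IFNb, SCR DMSO or IFNAR1sg IFNb libraries or IFNAR1sg DMSO replicate 2 (-1.58, adjusted p = 0.46), and that of the IFI27 sum in 4. With MPS1i the gene sums differed by -1.51 for IFI44 and -1.29 for IFI44L. By region the MPS1i changes differed by -1.41 at chr1:78628999-78629141 in IFI44L, and by -1.74 at chr1:78650652-78652092 and -1.80 at chr1:78655511-78655628 in IFI44. Of these MPS1i calls, that of chr1:78628999-78629141 was lost in 4 of 19 alternatives and that of chr1:78650652-78652092 in 3. Each of these regions shares 1 exon base, except chr1:78622566-78623186 and the region past IFI44L. With 2 libraries a group, a sample that stands apart within a group could not be searched for.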

How the results depend on the processing

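Over all alternatives 846 values of the gene sums had the verdict of the main fit, called or not called, 11 lost a call and 4 gained one. For regions these numbers were 5136, 154 and 40. Values called in neither fit count among those with the same verdict. Of the regions called higher with MPS1i, 9 of 17 in IFNAR1sg and 17 of 26 in SCR held in every alternative that tested them. With IFNb, 5 of 12 in IFNAR1sg and 21 of 25 in SCR did. No value called in the main fit or in the alternative reversed its direction. Values called in neither could change sign. For IFI44 with MPS1i against IFNb in IFNAR1sg the difference was -0.02, and -0.16 to 0.35 over the alternatives. Values to which DESeq2 gave no adjusted p are left out. With MPS1i in IFNAR1sg, 17 regions were called higher, against 11 of the 13 still tested with only the groups compared, where no call was lost in a region still tested, 10 with DESeq2, 10 without the filter and 11 to 18 leaving out a library. With IFNb in IFNAR1sg there were 12, against 6 with DESeq2, which gave an adjusted p to 6 regions only, and 6 to 13 leaving out a library. In DMSO, IFNAR1sg minus SCR, 0 regions were called lower, against 0 to 1 leaving out a library, and 0 gene sums, against 1 without the filter and 0 to 1 leaving out a library. The MPS1i interaction had 3 regions, against 1 of the 25 still tested with only the groups compared, 1 without the filter and 1 to 3 leaving out a library, and 2 gene sums, against 0 without exon-sharing regions. Between MPS1i and IFNb in SCR, 1 region was called higher, against 2 of the 21 still tested with only the groups compared, 0 of 19 with DESeq2, 0 without the filter and 0 to 1 leaving out a library; 3 gene sums were called lower, against 0 without exon-sharing regions. In IFNAR1sg 1 region was higher, against 1 to 2 leaving out a library. The causes of the other changes were not tested. Differences between replicates 1 and 2, taken over all tested regions, showed little correlation between groups (-0.054 to 0.085). Counting noise in regions with few reads lowers such correlations, so whether replicate numbers pair the libraries was not decided. With a replicate block 1 region and 1 gene sum (IFI6) were called lower in IFNAR1sg than in SCR in DMSO. Where 1 library of a group was left, its spread was taken from the other groups. The reads of IFI27, at most 41 in a library, limit its values.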
